A study of Mus musculus with 2 samples.

Results

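The miR-26 family of the mouse consists of 3 genes, Mir26a-1, Mir26a-2 and Mir26b, and each lies inside a different gene of the Ctdsp phosphatase family. They were found by matching the Ensembl identifiers of the deposited miRNA count tables to the GENCODE M21 annotation, which gave 3 of the 1973 genes listed. The samples were livers of B6NCrl mouse embryos of day 12.5, males and females pooled, with no treatment or second genotype named. The labels put both libraries of short RNA in 1 group, replicate 1 from a pool of 120 embryos and replicate 2 from a pool of 88. Both pools carry the same donor identifier, so the spread between them may in part be technical.

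A microRNA is cut from the hairpin of a longer transcript as a short duplex, and 1 arm of it, 5p or 3p, usually guides the silencing complex to messenger RNAs that pair with its seed, bases 2 to 8. The miR-26 family is best known in liver and other tissues for slowing growth, with the histone methyltransferase gene Ezh2 and several cell cycle genes among its targets. The host genes encode small phosphatases that act on the tail of RNA polymerase II and on the retinoblastoma protein. A miRNA inside an intron is commonly made from its host's transcript, but host messenger RNA was not measured by this assay.

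The mature sequences are shown first because they decide which reads can be told apart. They come from RefSeq (GRCm38.p6), run 5′ to 3′, and carry the seed in capitals.
miR-26a-5p, from Mir26a-1 and from Mir26a-2: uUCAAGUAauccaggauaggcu
miR-26b-5p, from Mir26b: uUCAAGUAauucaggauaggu
miR-26a-1-3p, from Mir26a-1: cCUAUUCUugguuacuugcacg
miR-26a-2-3p, from Mir26a-2: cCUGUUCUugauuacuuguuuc
miR-26b-3p, from Mir26b: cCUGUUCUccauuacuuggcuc

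All 3 genes give a 5p arm with 1 seed, and no other gene in the RefSeq miRNA table had that seed. The 5p arms of the Mir26a genes are the same in all 22 bases. The 5p arm of Mir26b differs from them at 2 of 21 compared bases, C11U and C21U, counted from the 5′ end with the miR-26a base first. The 3p arms are less alike. Those of Mir26a-1 and Mir26a-2 differ at 6 of 22 bases, one of them inside the seed (A4G), so that Mir26a-2 and Mir26b share a 3p seed that Mir26a-1 lacks.

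The hairpins show how far the identity of the Mir26a genes reaches, with both mature arms in capitals.
Mir26a-1, chr9:119031796-119031885, plus strand: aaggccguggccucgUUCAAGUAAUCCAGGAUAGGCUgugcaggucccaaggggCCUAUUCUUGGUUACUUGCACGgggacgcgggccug
Mir26a-2, chr10:126995530-126995613, plus strand: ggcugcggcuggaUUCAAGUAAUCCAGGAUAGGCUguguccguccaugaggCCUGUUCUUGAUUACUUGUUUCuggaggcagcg
Mir26b, chr1:74394310-74394394, plus strand: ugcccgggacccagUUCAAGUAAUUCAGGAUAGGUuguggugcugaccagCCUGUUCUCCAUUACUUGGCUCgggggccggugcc

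The Mir26a hairpins share a run of 25 bases, which begins with the first base of miR-26a-5p and goes 3 bases past its end (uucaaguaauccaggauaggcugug). Of the windows of 22 bases in the Mir26a-1 hairpin, 4 of 69 occur in another of the 1005 RefSeq hairpins, and of those in Mir26a-2, 4 of 63. No window of 26 bases does so in either gene. For Mir26b the number is 0 of 68 even with windows of 18 bases, and its longest run in common is 11 bases with Mir26a-1 and 10 with Mir26a-2. A read of the whole miR-26a-5p therefore has 2 places with the same letters, whereas a read of either arm of Mir26b has none besides its own among these hairpins. The whole genome was not searched.

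In the GENCODE M21 annotation of mm10, all 3 hairpins lie on the strand of their host. Mir26a-1 (ENSMUSG00000065513.1) lies in intron 5 of 7 of the principal Ctdspl transcript, in an intron of 3283 bases, with 1543 bases before the hairpin and 1650 after it. Mir26a-2 (ENSMUSG00000065430.1) lies in intron 5 of 7 of Ctdsp2, an intron of 1946 bases, with 1621 bases before it and 241 after it. Mir26b (ENSMUSG00000065468.1) lies in intron 4 of 6 of Ctdsp1, an intron of 564 bases, with 234 bases before it and 245 after it. The intron is the corresponding one in the 3 hosts by the size of its neighbours. The exon before it has 57 bases and the exon after it 93 bases in each host. Between hosts, the upstream exon is identical at 66.7% to 77.2% of its bases and the downstream exon at 81.7% to 83.9%.

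Other transcripts of the hosts place 1 hairpin differently. Mir26a-2 overlaps an exon in 2 of the 4 annotated Ctdsp2 transcripts, a short coding one and a retained intron, whereas Mir26a-1 and Mir26b overlap an exon in 0 of the 4 Ctdspl and 0 of the 3 Ctdsp1 transcripts. Ctdspl2, another gene with this name stem, holds 0 annotated miRNA genes.

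**Figure D1:**
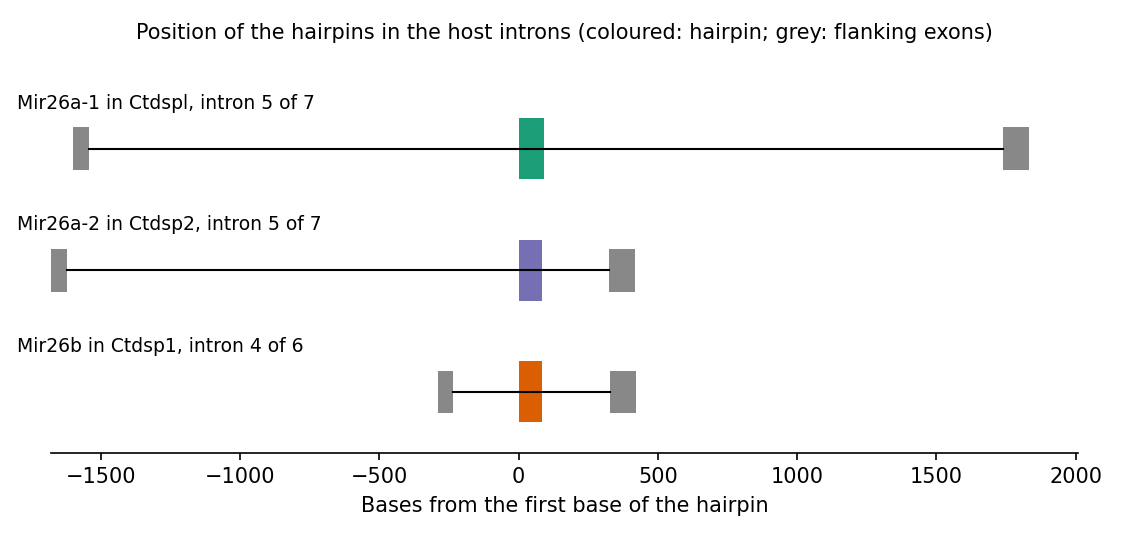
Position of each miR-26 hairpin (coloured) in the intron (line) of its host between the flanking exons (grey), in bases from the first base of the hairpin. The flanking exons have 57 and 93 bases in all 3 hosts, while the introns measure 3283, 1946 and 564 bases.

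The libraries held 11057424 and 11013976 reads in replicates 1 and 2. Sense counts on miRNA genes made up 3447858 and 3534816 of these, and levels are given per 1000000 of them (CPM), with 95% Clopper-Pearson intervals that cover counting error only. The tissue label was checked against its markers. Mir122 of hepatocytes ranked 2 and Mir126a of endothelium ranked 1 of the 1973 genes, all 3 erythroid genes passed 10 CPM in both libraries, and 0 of 5 measured brain genes did. That threshold was also passed by 1 of 1 myeloid gene, 4 of 5 of mesenchyme, 3 of 6 of heart and skeletal muscle, and 1 of 3 of pancreas. The brain genes measured are copies of Mir124a and Mir9, which like the Mir26a genes have sister loci, so their counts do not bound those miRNAs. The same holds for the muscle genes under the threshold, Mir1a-1, Mir133a-1 and Mir133a-2, and for Mir199a-1 of mesenchyme. The muscle genes that passed were Mir206, Mir208a and Mir208b. In bulk tissue, fewer cells of a type and less RNA per cell cannot be told apart.

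By reads counted on a single gene, Mir26b was one of the highest miRNA genes of the liver. The Mir26a genes were counted at a level lower by about 3 orders of magnitude. Reads aligned to several places, 28.8% of reads in replicate 1 and 31.1% in replicate 2, enter none of these levels or ranks. Mir26b had 143956 sense counts in replicate 1 and 134850 in replicate 2, or 41752 CPM (95% interval 41541 to 41964) and 38149 CPM (37950 to 38349). Its mean was 39951 ± 2548 CPM (SD, n = 2), or 3.995% of all sense counts on miRNA genes, and it ranked 5 in both libraries. The level differed by little between the pools beside the distance to the other members.

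Mir26a-2, in Ctdsp2, had 104 and 136 counts, or 30.2 CPM (24.6 to 36.5) in replicate 1 and 38.5 CPM (32.3 to 45.5) in replicate 2. Its mean was 34.3 ± 5.88 CPM (SD, n = 2), at rank 247. This is above the detection threshold of 10 CPM in both libraries but below 316 CPM, the median of the 301 genes that passed that threshold.

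Mir26a-1, in Ctdspl, had 37 and 33 counts, or 10.7 CPM (7.56 to 14.8) in replicate 1 and 9.34 CPM (6.43 to 13.1) in replicate 2. Its mean was 10.03 ± 0.987 CPM (SD, n = 2), at rank 308. It stood at the threshold, just over it in replicate 1 and just under it in replicate 2, so 2 of 3 members were detected in both libraries, against 15.3% of all genes listed. On the opposite strand, each of the 3 members had 0 counts in either library, so a level of up to 0.870 CPM in replicate 1 and 0.849 CPM in replicate 2 is allowed.

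**Figure D2:**
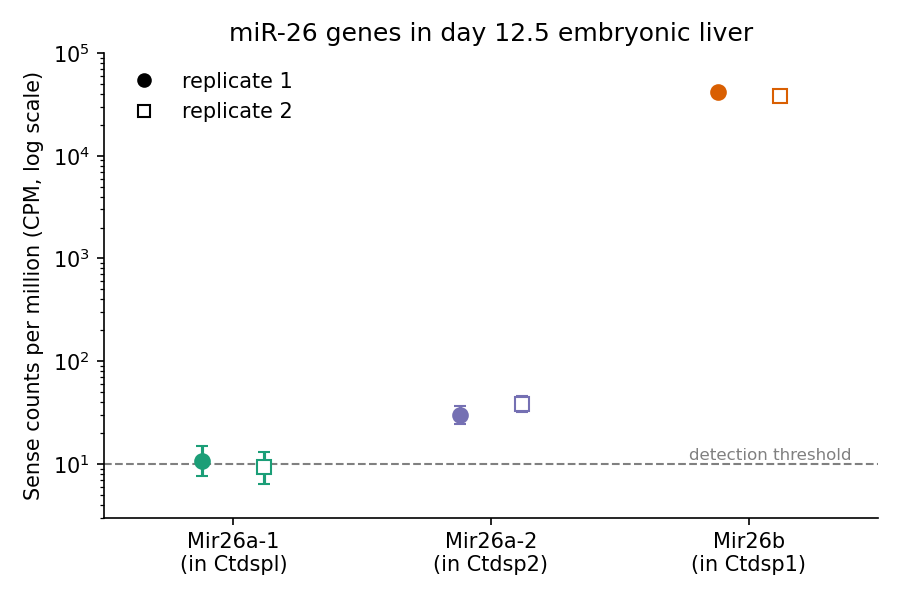
Sense counts per 1000000 (CPM) on a log axis for each miR-26 gene, with replicate 1 as filled circles, replicate 2 as open squares, and bars for the 95% Clopper-Pearson interval of each library. Mir26b lies at 41752 and 38149 CPM, Mir26a-2 between 30.2 and 38.5 CPM, and Mir26a-1 on either side of the dashed line at 10 CPM.

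The order of the 3 genes, Mir26b over Mir26a-2 over Mir26a-1, was the same in both libraries, and the values of neighbours did not overlap. The genes were counted in the same 2 libraries, so their values are paired. With so few pairs a permutation test cannot decide the order, which is given without a test. Mir26b had 3891 times the counts of Mir26a-1 in replicate 1 and 4086 times in replicate 2, a mean ratio of 3989 ± 138 (SD, n = 2). Against Mir26a-2 the ratio of counts was 1384 and 992, with a mean of 1188 ± 278. These ratios compare counts assigned to genes, and they need not be ratios of mature miRNA.

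The genes with the same mature 5p arm differed from each other as well. Mir26a-2 had 2.81 times the counts of Mir26a-1 in replicate 1 (95% interval 1.91 to 4.21) and 4.12 times in replicate 2 (2.8 to 6.23), a mean ratio of 3.47 ± 0.927 (SD, n = 2). The interval lay above 1 in both libraries, and the intervals of the libraries overlapped. Divided by the hairpin lengths of 90, 84 and 85 bases, the mean ratio of Mir26b to Mir26a-1 was 4223, that of Mir26b to Mir26a-2 was 1174, and that of Mir26a-2 to Mir26a-1 was 3.71.

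Within the family, Mir26b therefore held 99.9% of the counts in each library and the Mir26a genes together 0.0979% in replicate 1 and 0.125% in replicate 2. Mir26b had 1021 and 798 times the summed counts of the Mir26a genes, 141 and 169. The tables report each gene as a whole, so they do not say which arm the counts came from. A separate line of each table holds reads aligned to several places, 3180324 in replicate 1 and 3427344 in replicate 2, which are given to no gene. That line is 22.1 and 25.4 times as large as the counts of Mir26b. How many of its reads were miR-26a-5p was not tested, so the counts do not show that liver holds less miR-26a than miR-26b.

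Sharing of mature sequence was set against counts over all listed genes with a RefSeq mature sequence, 858 in number. For 775 of them no mature sequence occurs whole in another RefSeq hairpin, as for Mir26b. For 49 genes 1 of the 2 arms does, as for both Mir26a genes, and for 34 all do. The RefSeq table is not complete, so some genes of the first class have copies that were not seen. Mir125b-1 is in it because the hairpin of Mir125b-2, which has the same 5p sequence, is not in the table, and Mirlet7a-2 because its let-7a-5p arm is listed only under Mirlet7a-1.

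Over all genes of each class, those near 0 included, genes with 1 shared arm did not have a lower median than the other classes. None reached the level of Mir26b, but Mir26b ranked 5 of the 1973 genes, so few genes of any class did. Their median level was 17.6 CPM, between the Mir26a genes, which were 20 and 29 in the order of the 49. The median was 0.722 CPM without a shared arm, a class with many genes near 0, and 0.859 CPM over all 858. Detected at 10 CPM in both libraries were 28 of the 49 genes with 1 shared arm, 228 of the 775 without one and 260 of all 858. These medians therefore do not compare the detected genes of the classes, and the part of sharing in the counts was not tested. At 10000 CPM or more stood 25 of the 775 genes without a shared arm, 0 of the 49 with 1 shared arm and 0 of the 34 with all arms shared. Over all 858 genes it was 25, so 0 of 49 and 0 of 34 do not set those classes apart. The highest of the 49 was Mir92-1 at 9526 CPM, and the 34 had a median of 0 CPM.

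**Figure D3:**
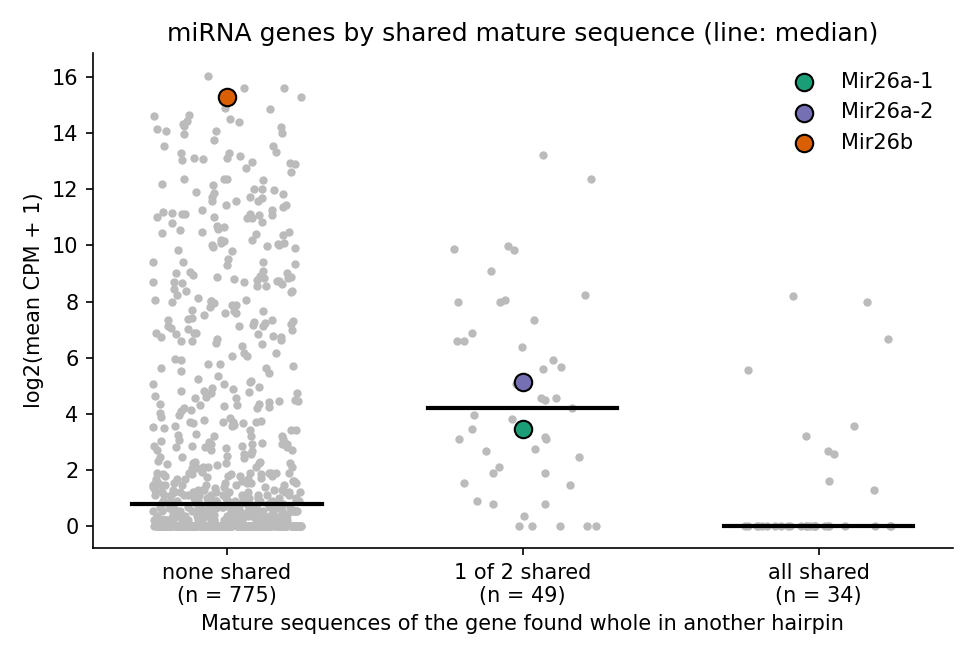
Level of 858 miRNA genes as log2(mean CPM + 1), by whether their mature sequences lie whole in the hairpin of another gene, with class medians as lines. Mir26b is near the top of the 775 genes without a shared sequence, and the Mir26a genes lie on both sides of the median, 17.6 CPM, of the 49 genes with 1 of 2 arms shared.

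The length of the shared run varied among the 49 genes with 1 shared arm. Where it was at most 22 bases, 4 of 10 genes exceeded 100 CPM and the median was 52.6 CPM. The median was 32.0 CPM for 11 genes with runs of 23 or 24 bases, 9.02 CPM for 12 genes with 25 or 26, and 3.14 CPM for 16 genes with 27 or more. In those groups 4 of 11, 1 of 12 and 3 of 16 genes exceeded 100 CPM, so the count over 100 CPM did not follow run length throughout. Of the 49 genes, 44 had any counts. The genes at 0 were all in the group with 27 or more bases and pull down its median, while the lowest level in the other groups was 0.286 CPM. The medians therefore do not show a steady fall with run length among genes with counts. The highest gene with 27 or more bases, Mir181a-1 at 543 CPM, lay above the highest with 25 or 26, Mir181b-2 at 297 CPM. The Mir26a genes, with 25 bases, were among 9 genes with a run of that length, where Mir19b-1 was highest at 47.5 CPM, followed by Mir450-1 at 34.4 CPM and Mir26a-2 at 34.3 CPM. These are descriptions over loci that share their copies and libraries, and the part of run length in the counts was not tested.

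Other families also pair loci that have an identical mature sequence with a gene of the same seed that shares none. There were 15 such sets with counts, the Mir26a genes among them. For each the highest gene of that seed without a shared sequence was taken, a choice that favours that gene. That gene exceeded the summed set in 12 of 15, by a median of 4.96 times over all 15. The sets are not independent, since Mir181d was taken for both miR-181a-5p and miR-181b-5p. Mirlet7c-2 is also in both let-7 sets, that of let-7c-5p and that of the 3p arm it shares with Mirlet7a-1. The mean ratio was 909 ± 158 (SD, n = 2) for Mir26b over the Mir26a genes, second only to 1117 ± 15.8 for Mirlet7g over the genes of let-7c-5p, and 125 ± 1.41 for Mir30e over the genes of miR-30c-5p. The order ran the other way for miR-92a-3p, miR-7a-5p and miR-218-5p, whose sets exceeded Mir25, Mir7b and Mir7002. Of these, Mir7002 had only 0 and 2 counts.

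**Figure D4:**
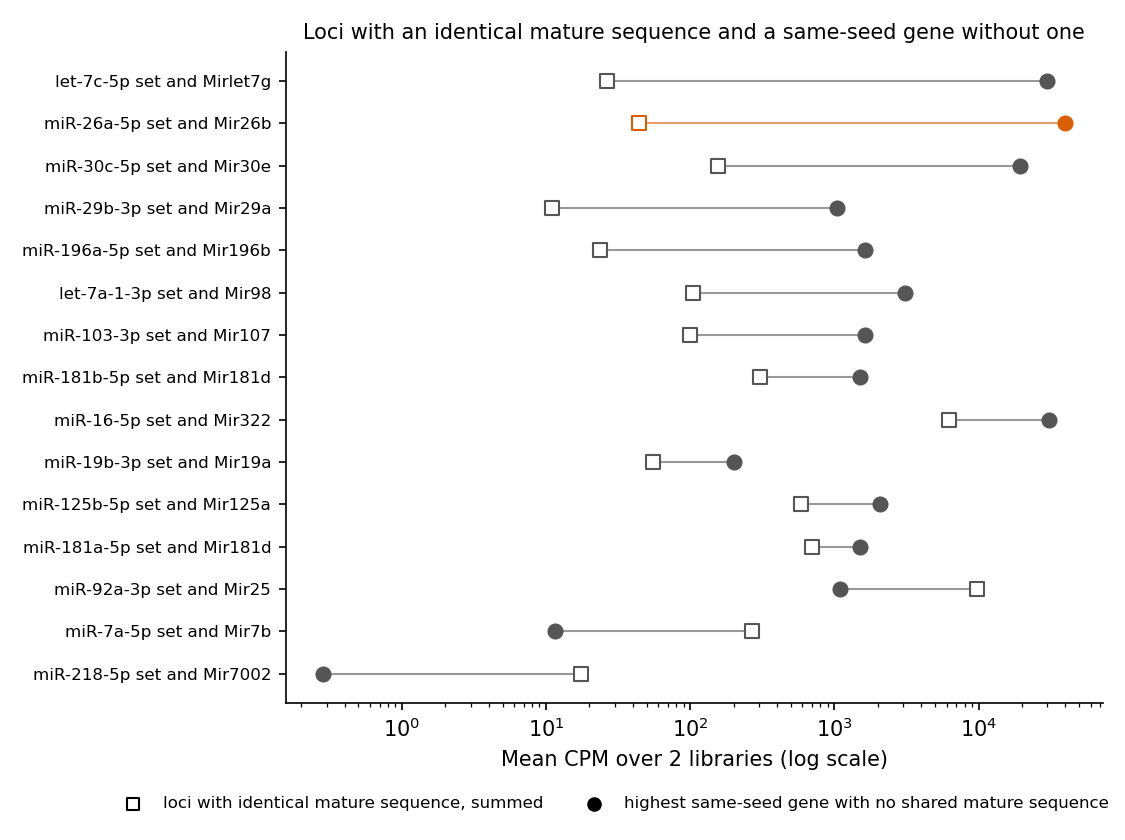
Mean CPM on a log axis for 15 sets of loci with an identical mature sequence, summed (open squares), and for the highest gene of the same seed without a shared mature sequence (filled circles), with the miR-26 family in orange. The gap is among the widest for miR-26, from 44.4 CPM for both Mir26a genes to 39951 CPM for Mir26b.

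The Pank genes, which encode the kinases that start coenzyme A synthesis, carry a family of the same build. Mir103-1 in Pank3 and Mir103-2 in Pank2 share the mature miR-103-3p, and Mir107 in Pank1 has the same seed with a sequence of its own. Mir103-1 had 10 and 21 counts, Mir103-2 had 268 and 403, and Mir107 had 5626 and 5834. The gene with its own sequence was again highest, with a mean ratio to the summed pair of 17 ± 4.58 (SD, n = 2), against 909 for miR-26.

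A list of 23 miRNAs, most of them in sets of related or shared hosts, had 19 members at 10 CPM or more in both libraries. Its median was 95.9 CPM. It was led by Mir93 at 16719 ± 2844 CPM and Mir106b at 10083 ± 828 CPM, both of the cell cycle gene Mcm7. Mir26b, which was not on that list, had a higher mean level by gene counts than each of the 23. The annotation placed 22 of the 23 in a host on the same strand, all but Mir190b. Mir33, Mir153 and Mir190a were each the only listed miRNA of their host, so the list is not made of paralogous hosts alone. Mir103-1, Mir103-2, Mir218-1, Mir218-2, Mir128-1, Mir128-2, Mir16-1 and Mir16-2 have an arm that occurs whole in another hairpin. Their counts do not give the level of those miRNAs, and the median of the list is the value of Mir103-2.

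Other miRNAs known to repress Ezh2, as miR-26 does, were also counted. Of 10 listed, 9 passed 10 CPM in both libraries, with a median of 98.6 CPM. Among them Mir138-1, Mir138-2, Mirlet7a-1, Mirlet7c-1 and Mirlet7c-2 have an arm that occurs whole in another hairpin, so their counts do not give the level of those miRNAs. The same holds for Mirlet7a-2, whose hairpin contains the whole let-7a-5p of Mirlet7a-1. The highest were Mir214 at 4543 ± 398 CPM (SD, n = 2) and Mir101b at 4162 ± 411 CPM, each below Mir26b in both libraries. Mir101a stood at 114 ± 11.2 CPM and Mirlet7a-1 at 99.6 ± 27.7 CPM.

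By likeness of level, measured as the mean absolute difference in log2(CPM + 1) over the 2 libraries, the genes nearest to Mir26b were Mir335 (0.33), Mir17 (0.35) and Mir322 (0.37). Nearest to Mir26a-2 were Mir3066 (0.07), Mir450-1 (0.13) and Mir3099 (0.19). Nearest to Mir26a-1 were Mir217 (0.04), Mir7036b (0.06) and Mir219a-2 (0.08). With 2 libraries of a single group, this likeness speaks of level only.

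Mir26b differed by a small fold between the pools, and neither Mir26a gene passed the test of a difference. The level in replicate 2 was divided by that in replicate 1, after 0.5 counts were added to each, on library sizes scaled by TMM. The log2 of this ratio was tested with a two-sided exact binomial test with Benjamini-Hochberg adjustment over the 464 genes with at least 10 counts. Mir26b was lower in replicate 2 by that test, with a log2 ratio of -0.0755 (95% interval -0.0862 to -0.0648, adjusted p = 2.74e-42, exact binomial test), a fold of 1.05. It was among the smaller differences of the tables, since 15.1% of the tested genes had a smaller absolute log2 ratio, and the median over all of them was 0.26.

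Mir26a-2 had a log2 ratio of 0.40 (0.03 to 0.79, adjusted p = 0.0794, exact binomial test), and Mir26a-1 had -0.14 (-0.87 to 0.57, adjusted p = 0.826, exact binomial test). The interval of Mir26a-2 lay above 0 and that of Mir26a-1 took in both directions. Of the tested genes, 65.5% had a smaller absolute log2 ratio than Mir26a-2 and 28.02% a smaller one than Mir26a-1. Thus 1 of 3 members was called, against 40.3% of all tested genes, and the test compares 2 libraries with counting error only, not 2 conditions.

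When a spread between pools was allowed for, the call of Mir26b was lost. That spread was either assumed or estimated with both libraries taken as 1 group. Such an estimate takes in the very difference under test, so it favours few calls. In edgeR's negative binomial exact test, 0 of 3 members passed with a coefficient of variation of 0.1, against 2.59% of all tested genes, and 0 of 3 with the coefficient of 0.162 estimated from these libraries, against 1.08%. At an unadjusted p under 0.05, the number of members was 0 in either case. The adjusted p of Mir26b was then 0.957 at 0.1 and 1 at the estimate, while each side of this test is 1 library.

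Blood and hepatocyte markers moved between the pools by more than Mir26b did, but so did most tested genes. Only 15.1% of them had a smaller absolute log2 ratio than Mir26b. The endothelial marker Mir126a moved less, with a log2 ratio of 0.041. The 3 erythroid genes, Mir144, Mir451a and Mir486, summed to 1.69% of sense counts in replicate 1 and 3.74% in replicate 2. They did not move one way: Mir451a and Mir144 were higher in replicate 2, with log2 ratios of 1.44 and 0.35, and Mir486 was lower, at -0.38. The hepatocyte miRNA Mir122 held 6.09% and 4.71%. The miR-26 family held 4.18% and 3.82%. The part of cell content in that difference was not tested.

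**Figure D5:**
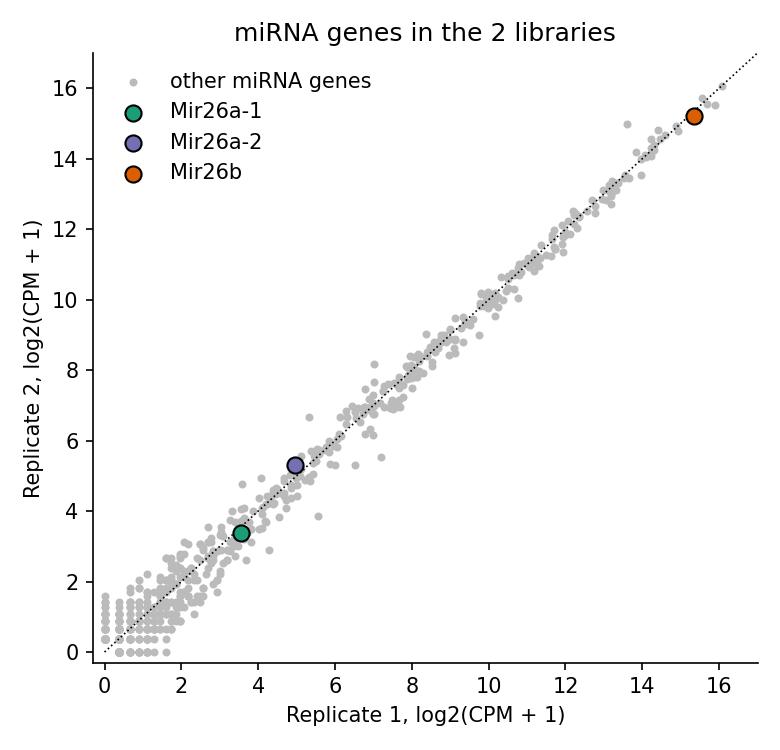
Level of each miRNA gene in replicate 1 (x axis) and replicate 2 (y axis) as log2(CPM + 1), with genes at 0 in both left out and the dotted line marking equal values. Mir26b, at 41752 and 38149 CPM, lies among the highest genes and close to the line. Mir26a-2 lies at 30.2 and 38.5 CPM and Mir26a-1 at 10.7 and 9.34 CPM.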

How the data were processed

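For each library the authors deposited raw read counts per miRNA gene, in columns for both strands, the sense strand and the opposite strand. The lists that accompany the files name mm10 as the build and GENCODE M4 as the annotation of the counts. The aligner, the counting tool and the extraction remain not given in the sources used here. Lines that name no gene held 29.4% and 25.8% of reads as unmapped, 28.8% and 31.1% as aligned to several places, and 10.6% and 11.0% as on no listed gene (replicates 1 and 2). None of these lines entered a library size or a test.

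Sense counts were scaled to CPM. Names, coordinates and hosts came from GENCODE M21, which named 1894 of the 1973 genes. Mature and hairpin sequences came from RefSeq (GRCm38.p6), matched by symbol, for 3 of 3 members. Differences between the libraries were tested with scipy 1.17.1 on TMM library sizes from edgeR 4.0.16, at an adjusted p of 0.05, and DESeq2 1.42.0 gave alternative size factors. The counts carry no molecular identifiers, so intervals and floors (3 counts) cover counting error only.

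The members and lists were chosen with earlier results of these data known. Named genes were the members, genes with their seed, the 3 genes nearest in level to each, 2 lists (paralogous hosts and Ezh2), marker lists for hepatocytes, erythroid cells, endothelium, mesenchyme, myeloid cells, brain, muscle and pancreas, and sets with an identical mature sequence. The comparison with same-seed genes and the grouping by shared run were chosen after values were seen. Alternatives were both strands, other denominators, scalings, filters, tests and added counts, and each library alone.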

Additional observations from a re-analysis of the deposited data

Results flagged for a closer look

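Reads aligned to several places form a signal outside the counts per gene used for the miR-26 genes. They numbered 3180324 in replicate 1 and 3427344 in replicate 2, or 40.8% and 41.9% of the aligned reads. The tables do not say which miRNAs these reads came from, and the mature miR-26a-5p is the same in both Mir26a genes. The number of miR-26a-5p reads among them was not tested. No group had the 4 samples that a search for single outlying samples needs, and there was no second group to compare.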

How the results depend on the processing

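Mir26b was above both Mir26a genes under every alternative run, and Mir26a-2 above Mir26a-1 except where their loci were summed, which ties them. With 2 libraries each one alone lies within 1 SD of the mean by construction. Levels depended on the denominator. Per 1000000 of all reads they were 3.17 CPM for Mir26a-1, 10.9 for Mir26a-2 and 12631 for Mir26b, and without the 10 highest genes in the denominator 16.7, 57.0 and 66442 CPM. With both strands counted, Mir26b stood at 36124 CPM and Mir26a-1 ranked 318. With loci of an identical mature sequence summed, the Mir26a genes both ranked 236. Each library alone gave 10.7 and 9.34 CPM for Mir26a-1, on either side of the detection threshold, and 2.81 and 4.12 for the ratio of Mir26a-2 to Mir26a-1. In edgeR's negative binomial exact test the log2 ratio of Mir26b, -0.0755, no longer passed at either coefficient of variation. The estimated coefficient takes in the difference under test. The 187 genes that differed between libraries, 102 higher and 85 lower in replicate 2, became 12 (6 and 6) at 0.1 and 5 (3 and 2) at the estimate, and 77 higher and 101 lower with total counts. Mir26a-1 could not be tested at a minimum of 100 counts, and no between-library value exists without 1 of the libraries. No paired comparison of groups was possible because there is 1 group. Depth limits the Mir26a genes, with at most 136 counts each.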
